A study of Danio rerio with 31 samples.

Results

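The interferon response genes described here are 10 gene IDs of the 32520 counted in adult zebrafish brain. They were chosen by name, as the IDs whose Ensembl symbol equals that of a listed gene in any letter case and with or without the paralog letter, and all 10 names were matched. Described singly are 8 of them, isg15, rsad2, mxa, mxb, irf1b, irf7, ifih1 and dhx58, while counts and medians over the group cover all 10. The matching by name used no measured value, but the 10 genes were listed with earlier results of these data known.

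RNA was sequenced from whole brains of 24 adult fish of the TU line to ask what a mixture of PCBs (polychlorinated biphenyls) and PBDEs (polybrominated diphenyl ethers) changes in exposed fish and in their unexposed F2 descendants. The groups were 6 treated and 6 control F0 males, 4 treated and 4 control F2 females, and 2 treated and 2 control F2 males. The F2 fish are called treated line or control line, since the label gives the treatment of their ancestors and they were not exposed themselves. The labels name no family, clutch or tank, and the p-values cover the spread between these fish and not between families or tanks. Gene reads per fish ranged from 12236220 to 34125659.

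Interferons are secreted proteins that cells release when sensors detect viral or other misplaced nucleic acid. Their receptors act through Janus kinases on STAT proteins, which enter the nucleus with an IRF protein and switch on interferon-stimulated genes. ifih1 (MDA5) is a sensor of double-stranded RNA in the cytoplasm and dhx58 (LGP2) is its relative that modulates sensing. irf7 and irf1b are transcription factors of the interferon regulatory family. isg15 is a ubiquitin-like modifier, rsad2 is viperin, which makes an antiviral nucleotide, and mxa and mxb are dynamin-like antiviral GTPases. In brain the genes are known to respond in microglia, neurons and glia alike, and in whole tissue fewer cells of a type and less RNA per cell cannot be told apart.

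For none of the 10 genes did a difference between treated and control fish, between sexes or between generations pass the test against the spread between fish. Differences were tested with edgeR's quasi-likelihood test and called at a Benjamini-Hochberg adjusted p under 0.05 over all genes tested. In F0 males 0 of 8 genes tested were called, where 11.4% of 18057 genes were; mxa and mxb had too few reads to be tested there. In the 3 comparisons of the treated with the control line, 0 of 10 were called in F2 females, F2 males and both sexes together, where 0% of 19463 genes were. In F2 females against males 0 of 10 were called, where 0.0154% of genes were. In F2 against F0 males 0 of 10 were called, where 4.28% of 21082 genes were. The difference of the line effect between F2 females and males, and that of the exposure effect in F0 males from the line effect in F2 males, gave 0 of 10, where 0% of all genes were called. The difference between the exposure effect in F0 males and the line effect in F2 females gave 0 of 10, where 0.00474% were. Over these 9 comparisons 8 of 88 tests of the 10 genes, or 9.09%, had an unadjusted p under 0.05, against 10.1% of the tests of all genes. The comparisons share fish, so these counts are not independent of each other. By comparison in the order above, 1, 2, 0, 2, 1, 0, 0, 0 and 2 of them did. Of all genes, 29.6, 7.65, 1.4, 7.69, 5.05, 20.8, 1.5, 6.18 and 11.6% did in the same order, so the pooled shares mix unlike comparisons. The tests counted include those of mxb in F2 females and in both F2 sexes (edgeR, unadjusted p = 0.00636 and 0.00649). In these fits mxb passed the filter on low counts through control-line fish alone. DESeq2 also called 0 of the 60 tests for which it gave an adjusted p.

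What several of the genes did show, irf7 and dhx58 among them, was a large spread between single fish of one group, and 6 libraries stand apart in it. The spread of rsad2 and irf1b was near the middle of all genes, at the 49.1st and 55.5th percentile. Among genes within 2-fold of their own mean level they stood higher, at the 68.6th and 83.3rd percentile. In 5 libraries many genes of low level had no reads at all, although each held at least 18120335 gene reads. Of 3546 genes with a mean of 0.5 to 2 CPM (gene reads scaled to library size with TMM factors), 56.7% and 53.2% were at 0 in treated-line females 6 and 24, 46.7% and 26.1% in control-line females 21 and 11, and 20.4% in treated F0 male 16. In the other 19 fish the share was 1.55 to 12.7%. Of the 10 interferon response genes, 6 and 4 were at 0 in treated-line females 6 and 24, and 5 and 4 in control-line females 11 and 21. F0 male 16 had 0 of 10 at 0, and the other 19 fish had at most 3. The sixth library, control-line female 39, had the highest level of all 24 fish for 6 of the 10 genes. Several results below are also given without these libraries, a choice made after seeing the data.

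**Figure D1:**
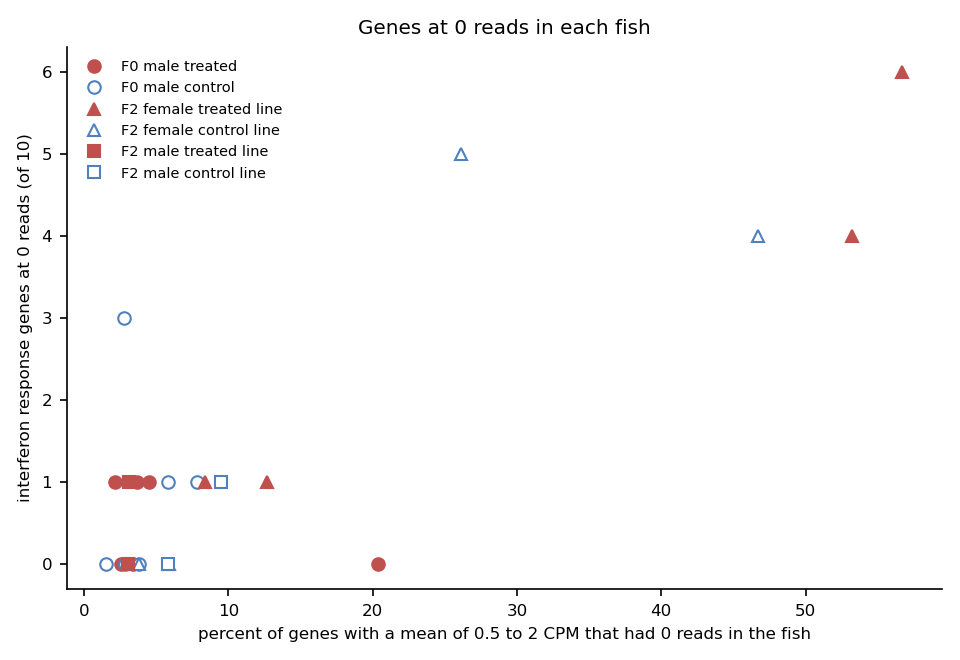
Interferon response genes at 0 reads in each fish (vertical axis, of 10) against the percent of genes with a mean of 0.5 to 2 CPM at 0 reads in the same fish (horizontal axis). Circles are F0 males, triangles F2 females and squares F2 males, filled for treated and open for control. The 4 fish with 4 to 6 genes at 0 are the F2 females with 26.1 to 56.7% of low-level genes at 0.

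The sensor ifih1 (ENSDARG00000018553) was at a low level in every group and its groups overlapped. In treated F0 males it ranged from 0.409 to 1.71 CPM (median 1.08), against 0.886 to 2.90 CPM (median 1.75) in control males. In F2 females it stood at 0, 1.69, 3.29 and 2.56 CPM in treated-line fish 6, 10, 24 and 28, against 0.498, 0.882, 3.34 and 2.81 CPM in control-line fish 11, 21, 31 and 39. Both lines held low and high fish, and the group means were 1.89 ± 1.42 and 1.88 ± 1.40 CPM (SD, n = 4 each). F2 males had 3.02 and 1.77 CPM in treated-line fish 30 and 38, against 1.07 and 2.11 CPM in control-line fish 25 and 27. The log2 change was −0.75 (SE 0.44, adjusted p = 0.266, edgeR) in F0 males and −0.005 (SE 1.11, adjusted p = 0.9999) in F2 females.

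The gene of the modulator dhx58 (ENSDARG00000089463) belonged to the 3 with the largest spread between fish. In treated F0 males 2, 10, 16, 24, 36 and 38 it had 0.318, 1.09, 1.29, 0.799, 0.749 and 0.849 CPM, against 1.51, 0.579, 0.445, 0.466, 0.957 and 0.554 CPM in control males 3, 9, 15, 25, 31 and 33. F2 females had 0, 0.632, 0 and 1.31 CPM in treated-line fish 6, 10, 24 and 28, against 0, 0, 1.17 and 6.11 CPM in control-line fish 11, 21, 31 and 39. In F2 males it had 0.586 and 0.272 CPM in treated-line fish 30 and 38, against 0 and 1.18 CPM in control-line fish 25 and 27. The groups overlapped in each pair, and control-line female 39 was the highest of all fish. The log2 change was 0.19 (SE 0.49, adjusted p = 0.837) in F0 males and −1.91 (SE 1.98, adjusted p = 0.93) in F2 females in edgeR, and the value in F2 females was 0.29 without control-line female 39.

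The transcription factor gene irf7 (ENSDARG00000045661) was also highest in control-line female 39. In treated F0 males 2, 10, 16, 24, 36 and 38 it had 1.05, 1.04, 0.862, 0.343, 0.288 and 0.0472 CPM, against 0.585, 0, 0.356, 0.893, 0.815 and 0.830 CPM in control males 3, 9, 15, 25, 31 and 33. In F2 females it had 0, 0.702, 0 and 1.13 CPM in treated-line fish 6, 10, 24 and 28, against 0, 0, 0.902 and 5.47 CPM in control-line fish 11, 21, 31 and 39. Among F2 males it had 0.838 and 0.817 CPM in treated-line fish 30 and 38, against 0.857 and 2.42 CPM in control-line fish 25 and 27. Treated and control fish overlapped in F0 males and F2 females. Both F2 control-line males lay above both treated-line males, in a comparison in which 0% of all genes were called. These are 2 against 2 fish, and the share of all genes without overlap there was not counted. The log2 change was 0.06 (SE 0.76, adjusted p = 0.967) in F0 males, −1.81 (SE 1.79, adjusted p = 0.927) in F2 females and −0.98 (SE 2.47, adjusted p = 1) in F2 males in edgeR. Without control-line female 39 the value in F2 females was 0.57, and without control-line male 27 that in F2 males was −0.04.

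irf1b (ENSDARG00000043249), an interferon regulatory factor, had less spread between fish than irf7 and dhx58, and 1 F0 control male stood apart. It ranged from 3.65 to 9.59 CPM (median 6.25) in treated F0 males, against 4.096 to 27.0 CPM (median 5.74) in controls, where male 25 was at 27.0 CPM and the next at 9.11 CPM. Among F2 females it had 5.49, 9.27, 13.3 and 12.9 CPM in treated-line fish 6, 10, 24 and 28, against 11.3, 15.9, 12.5 and 17.7 CPM in control-line fish 11, 21, 31 and 39. F2 males had 7.62 and 20.8 CPM in treated-line fish 30 and 38, against 10.4 and 13.2 CPM in control-line fish 25 and 27. All of these pairs overlapped. F2 males had a log2 level 0.76 above F0 males (SE 0.38, adjusted p = 0.252, edgeR), and without F0 control male 25 this was 1.103 (adjusted p = 0.0314). That is the single alternative of all those tried in which any of the 10 genes was called.

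The modifier gene isg15 (ENSDARG00000086374) had the lowest p of the genes in F0 males. In treated males 2, 10, 16, 24, 36 and 38 it had 7.82, 6.56, 29.95, 4.04, 6.31 and 2.78 CPM, against 7.26, 1.38, 2.90, 2.52, 3.23 and 5.04 CPM in control males 3, 9, 15, 25, 31 and 33. The arms overlapped, and treated male 16 stood far above the rest. The means were 9.58 ± 10.2 CPM in treated and 3.72 ± 2.103 CPM in control males (SD, n = 6 each). That is a log2 change of 1.38 (SE 0.55, unadjusted p = 0.0256, adjusted p = 0.113, edgeR). Without male 16, 1 of the 5 libraries with many genes at 0, the change was 0.58 (adjusted p = 0.338), and with a covariate for the percent of reads outside genes it was −0.44 (adjusted p = 0.95). The arms do not overlap in this percent, so the fit cannot tell it apart from treatment.

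In the F2 fish isg15 was at its highest in a control-line fish. It had 2.66, 11.9, 8.88 and 8.59 CPM in treated-line females 6, 10, 24 and 28, against 1.39, 4.82, 11.8 and 61.2 CPM in control-line females 11, 21, 31 and 39. It had 4.69 and 6.95 CPM in treated-line males 30 and 38, against 8.35 and 10.1 CPM in control-line males 25 and 27. In males both control-line fish lay above both treated-line fish, again where 0% of all genes were called. These are 2 against 2 fish, and the share of all genes without overlap was not counted. The log2 change was −1.32 (SE 0.95, adjusted p = 0.881) in F2 females and −0.66 (SE 1.34, adjusted p = 1) in F2 males in edgeR. In females the value was 0.41 without control-line female 39 and to 1.36 without control-line females 31 and 39. The change in F0 males exceeded that in F2 females by 2.68 on the log2 scale (SE 1.12, unadjusted p = 0.027, adjusted p = 0.388).

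rsad2 (ENSDARG00000004952), the viperin gene, was highest in control-line female 39. It ranged from 5.64 to 12.39 CPM (median 7.66) in treated F0 males, against 4.28 to 10.9 CPM (median 8.09) in control males. Among F2 females it had 6.13, 11.2, 8.99 and 10.1 CPM in treated-line fish 6, 10, 24 and 28, against 7.96, 9.46, 14.2 and 30.6 CPM in control-line fish 11, 21, 31 and 39. F2 males had 8.46 and 8.65 CPM in treated-line fish 30 and 38, against 7.41 and 14.9 CPM in control-line fish 25 and 27. The pairs overlapped. The log2 change was 0.09 (SE 0.25, adjusted p = 0.845) in F0 males and −0.77 (SE 0.40, adjusted p = 0.699) in F2 females in edgeR, and the value in F2 females was −0.21 without female 39.

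The GTPase genes mxa (ENSDARG00000021688) and mxb (ENSDARG00000004953) were at the limit of detection in most fish. The 2 genes neighbour each other in the zebrafish genome as annotated by RefSeq on assembly GRCz12tu, and reads of like sequence could have been split between them or lost. mxa had 0 reads in 2 of 6 treated and 2 of 6 control F0 males and at most 0.718 CPM in the others. F2 females had 0, 0.211, 0 and 0.179 CPM in treated-line fish 6, 10, 24 and 28, against 0, 0, 0.812 and 2.02 CPM in control-line fish 11, 21, 31 and 39. In F2 males it had 0.251 and 0.341 CPM in treated-line fish 30 and 38, against 0.471 and 2.98 CPM in control-line fish 25 and 27. The females overlapped and the males did not, where 0% of all genes were called and the share without overlap was not counted. The log2 change was −2.84 (SE 1.92, adjusted p = 0.852) in F2 females and −2.52 (SE 2.64, adjusted p = 1) in F2 males in edgeR. It was −1.47 in F2 females without control-line female 39 (adjusted p = 0.947) and −0.65 in F2 males without control-line male 27 (adjusted p = 1).

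mxb had reads in control-line females alone among the F2 females. It had 0 reads in all 4 treated-line females, against 0, 0, 3.07 and 5.85 CPM in control-line females 11, 21, 31 and 39, or 224 reads in all. Among F2 males it had 0.168 and 0 CPM in treated-line fish 30 and 38, against 0.343 and 0.806 CPM in control-line fish 25 and 27. These males did not overlap, where 0% of all genes were called and the share without overlap was not counted. In F0 males it ranged from 0 to 0.591 CPM in treated and from 0 to 0.682 CPM in control fish. The F2 females overlapped at 0. The control-line fish without reads are 2 of the libraries with many genes at 0, as are treated-line females 6 and 24. Treated-line females 10 and 28 are not among those libraries and were also at 0. The part of detection in this was not tested.

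Against a floor of 3 reads over the treated-line group, 0.0405 CPM, mxb was at least 54-fold lower in treated-line than in control-line females on average, and at least 25-fold lower without control-line female 39. Both bounds cover counting error only. Their floor pools the reads of treated-line females 6 and 24, in which 56.7% and 53.2% of low-level genes were at 0. Loss of reads in those libraries is not covered, and the true difference may be smaller than either bound. Among the F2 fish mxa and mxb passed the filter on low counts through control-line fish alone: 0 treated-line and 3 control-line fish lay above its 0.546 CPM for each gene. Their changes and p-values, chosen in this way toward lower values in the treated line, are therefore a description. For mxb the edgeR fit in F2 females gave an unadjusted p = 0.00636 and an adjusted p = 0.472, with a fitted log2 change of −8.45 that has no set size because a group is at 0. Without the 5 libraries with many genes at 0, the comparison is of treated-line females 10 and 28 with control-line females 31 and 39, and the adjusted p was 0.0975. Without control-line females 31 and 39 all remaining females are at 0 and no comparison is left. The difference of this change from the one in F0 males had an unadjusted p = 0.00267 and an adjusted p = 0.308 in edgeR.

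**Figure D2:**
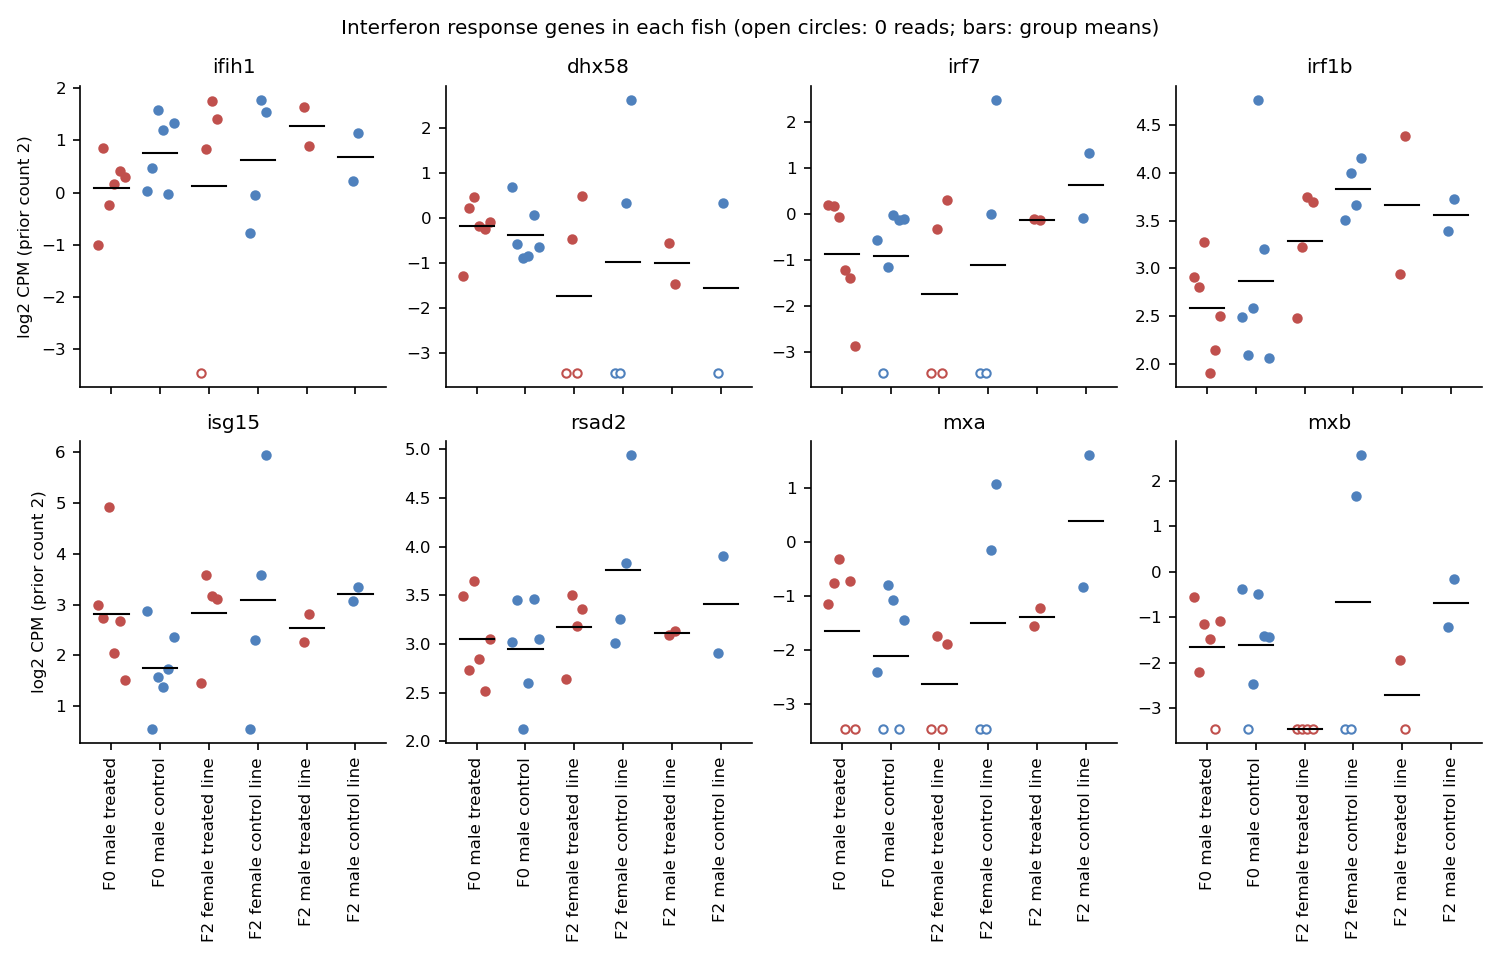
Level of 8 interferon response genes in each fish as log2 CPM with a prior count of 2, in 6 groups with treated left of control (red treated, blue control). Each panel has its own vertical scale, bars are group means and open circles are fish with 0 reads. The highest control-line F2 female for isg15, rsad2, dhx58, irf7, mxa and mxb is the same fish, number 39.

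Seen as a group, the 10 genes had 0 calls and medians that moved with single fish. In F0 males 5 of 8 log2 changes were positive and the median was 0.08, beside −0.02 over all genes tested. It was −0.06 with 5 of 8 negative without treated male 16, −0.275 with 6 of 8 negative without treated male 16 and control males 9 and 33, and −0.345 with 7 of 8 negative when the percent of reads outside genes was a covariate. In F2 females 10 of 10 were negative with a median of −1.56, beside −0.02 over all genes, and the median is the same with mxb at its bound. Among them ifih1 was at −0.005, and with DESeq2 9 of 10 were negative. Leaving out mxa and mxb, which passed the filter through control-line fish, the other 8 had a median of −1.04. The median in F2 females was −0.29 with 6 of 10 negative without control-line female 39. It was 1.40 with 6 of 8 tested genes positive without control-line females 31 and 39, −1.82 without the 5 libraries with many genes at 0, and −0.40 without those and female 39. In F2 males 8 of 10 were negative with a median of −0.55, beside 0.005 over all genes. The median was −0.01 with 5 of 10 negative without control-line male 27, −1.13 without control-line male 25, and −0.41 for the 8 genes other than mxa and mxb. With the same covariate the median in F2 males was −1.517 with 9 of 10 negative. With both F2 sexes in 1 fit 9 of 10 were negative with a median of −1.27, beside −0.01 over all genes, and the 8 other than mxa and mxb had a median of −0.87. That fit gave −0.205 with 7 of 10 negative without control-line female 39, and 0.44 with 5 of 8 positive without control-line females 31 and 39. Without the 5 libraries with many genes at 0 it gave −1.26, and −0.44 without those and female 39. With the covariate the fit of both sexes gave −2.361 with 9 of 10 negative.

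**Figure D3:**
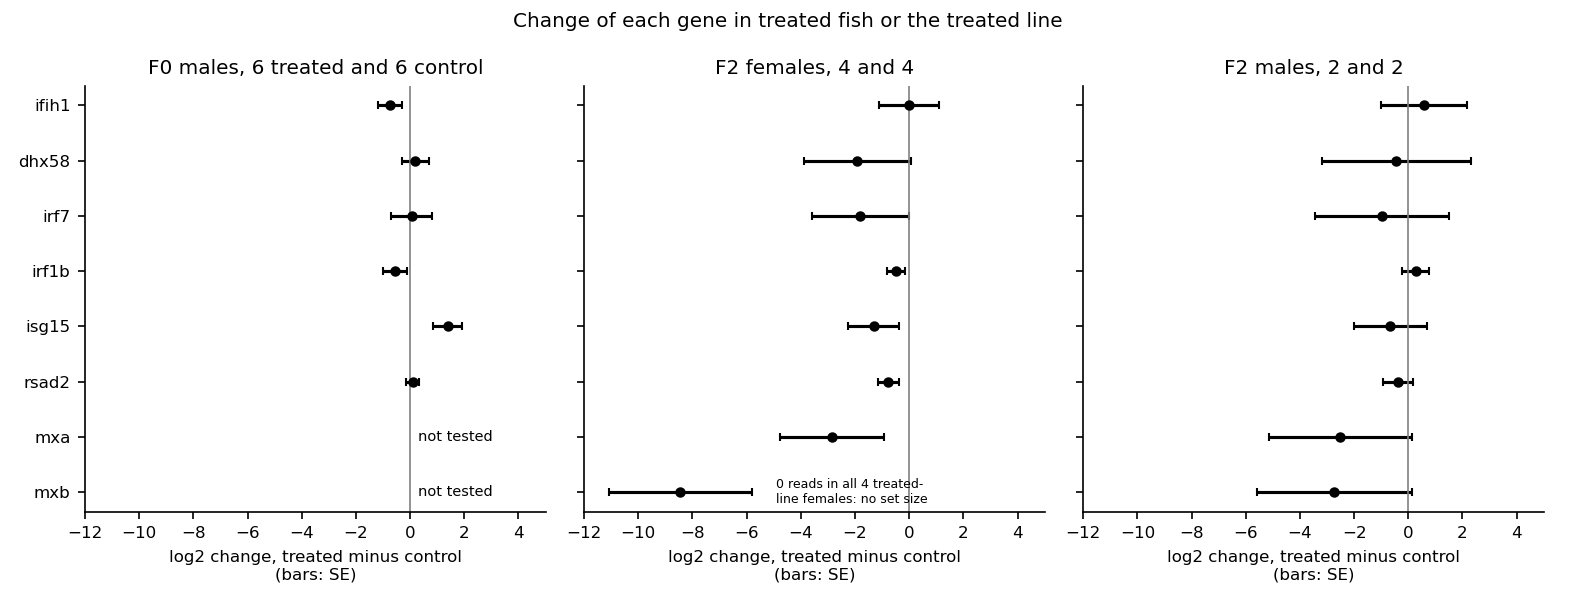
Fitted log2 change of 8 interferon response genes, treated minus control, with a standard error derived from the test, in F0 males, F2 females and F2 males. mxa and mxb were not tested in F0 males, and the point of mxb in F2 females has no set size because all 4 treated-line females had 0 reads. All 8 points lie below 0 in F2 females, 6 of 8 in F2 males and 2 of 6 in F0 males. In F2 females that of ifih1 is at −0.005. Among the F2 fish mxa and mxb passed the filter on low counts through control-line fish alone.

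Control-line female 39 stood high in many interferon-stimulated genes outside the 10 as well. Of the 10 genes, 8 were more than 2-fold above the median of the other 3 control-line females and 0 were more than 2-fold below; of all 21082 genes tested, 16.9% were above by that much. Of 38 other antiviral effectors 22 were above and 2 below, and of 130 other pathway genes 37, or 28.5%, were above and 10 below. stat2, a subunit of the interferon-stimulated transcription complex, had 99.8 CPM in female 39, against 38.3 CPM in the next highest fish. ifi27.1, of a family of small interferon-stimulated mitochondrial proteins, had 210.5 CPM, against 129.7 CPM in the next, and xaf1, a cell death gene, had 6.52 against 3.56 CPM. The fish was the highest of 24 for 6 of the 10 genes (60%), 20 of the 130 other pathway genes (15.4%) and 464 of all genes (2.2%). High levels were not particular to this fish. Control-line female 31, set against the other 3 control-line females in the same way, had 7 of the 10 genes more than 2-fold above, 23 of the 130 other pathway genes (17.7%) and 15.9% of all genes. Treated-line female 28 had 4 of the 10 genes, 47 of the 130 (36.2%) and 18.8% of all genes more than 2-fold above the other treated-line females. The 3 fish that female 39 is set against include females 11 and 21, with 26.1% and 46.7% of low-level genes at 0 and no reads of dhx58, irf7, mxa or mxb. These counts were made because female 39 was seen to stand apart, and they carry no test.

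Markers of other cells were read beside these levels, and their part in them was not tested. Photoreceptor markers were also high in female 39: 25 of 32 were more than 2-fold above the other 3 control-line females, and their summed level was 800.1 CPM against 429.5 to 452.6 CPM. The other 3 include fish 11 and 21, in each of which 20 of 32 photoreceptor markers were at 0, and treated-line female 28 had a higher sum of 1581 CPM. Of 28 markers of microglia and macrophages 4 were above and 6 below, and a summed level of 679.9 CPM against 498.1 to 641.8 CPM. Of 19 markers of lymphocytes and NK cells 3 were above and 3 below, with a summed level of 16.8 CPM against 19.4 to 32.2 CPM.

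**Figure D4:**
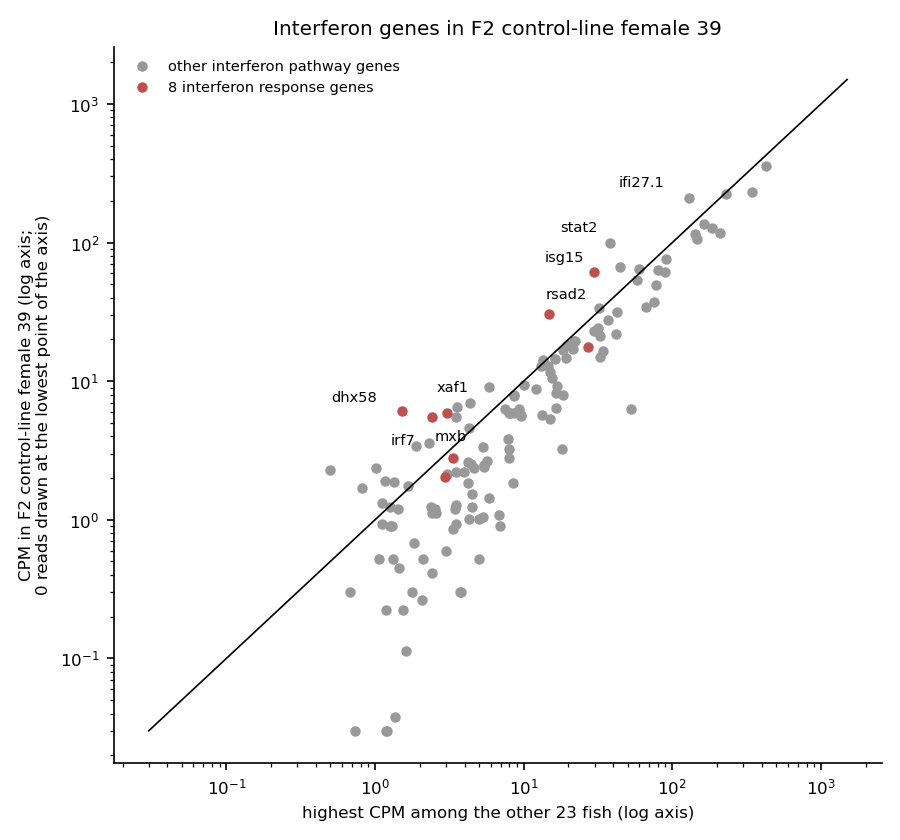
Level of interferon pathway genes in control-line F2 female 39 (vertical axis) against the highest level in any of the other 23 fish (horizontal axis), both in CPM on log axes. Red points are 8 interferon response genes, grey points 130 other pathway genes, and points above the line are genes highest in female 39. They include 5 of the 8 genes and stat2, ifi27.1 and xaf1.

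Across fish the levels of the 10 genes were mostly positively correlated, to a degree that depends on the libraries that stand apart. After subtracting the mean of each group, the 45 pairs among the 10 genes had a median Pearson correlation of 0.465 over 24 fish, and 43 of them were positive. Their median correlation with all other genes was 0.075. The closest pairs were mxa and irf7 (0.80), irf7 and dhx58 (0.79), and isg15 and irf7 (0.78). The median was 0.390 without control-line female 39, 0.316 without females 31 and 39, 0.230 without the 5 libraries with many genes at 0, and 0.130 without those and female 39. The fish share library preparation and differ in detection, so the values are a description.

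**Figure D5:**
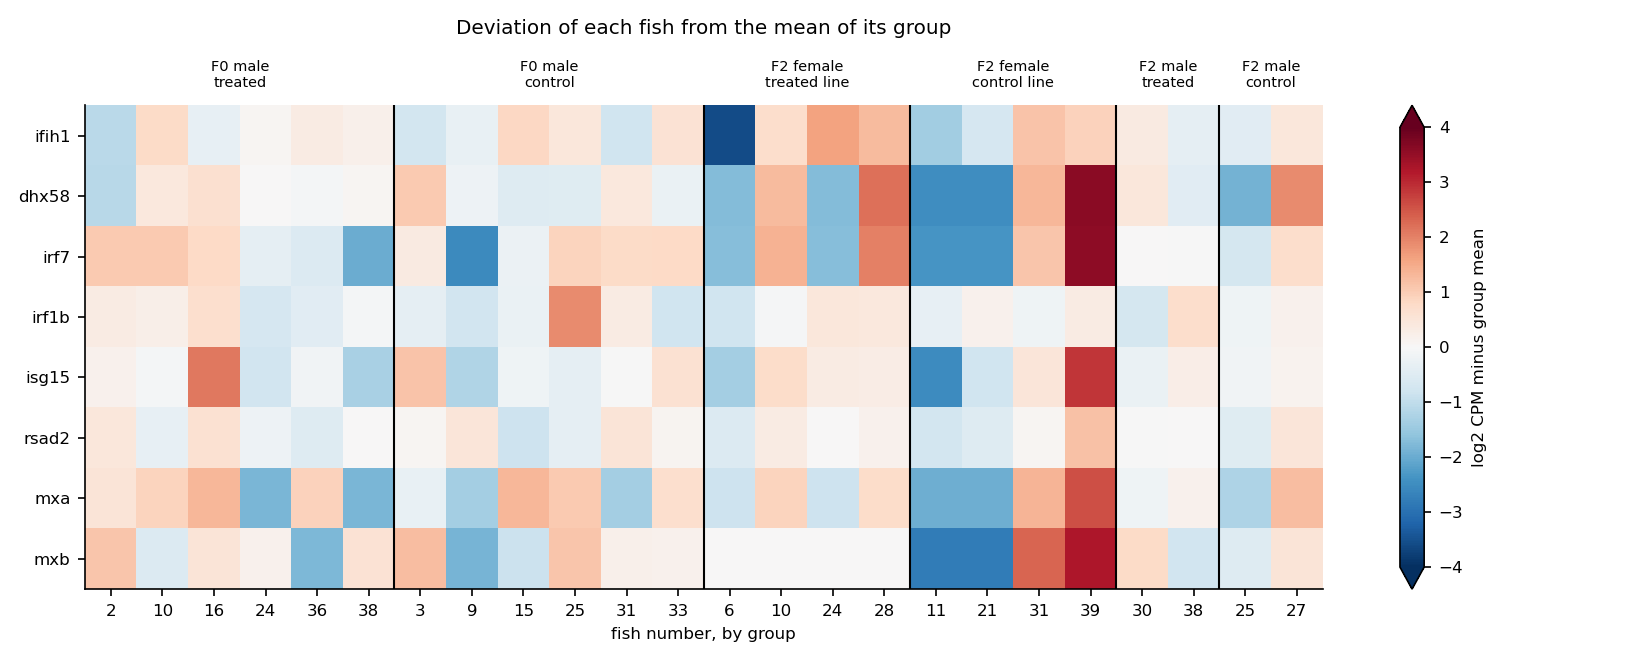
Deviation of 8 interferon response genes in each fish from the mean of its group, in log2 CPM with a prior count of 2, with colour capped at 4. Rows are genes and columns are fish by group, treated left of control. Control-line F2 female 39 is high and females 11 and 21 are low over most rows.

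The spread itself was given as the SD of log2 CPM around the group means. It was 1.73 for irf7, 1.68 for dhx58, 1.59 for mxb, 1.48 for mxa, 1.25 for isg15, 1.23 for ifih1, 0.70 for irf1b and 0.55 for rsad2. The median over 21082 genes was 0.566, and these 8 genes ranked from the 49.1st (rsad2) to the 98.2nd (irf7) percentile of all genes. Among genes within 2-fold of their own mean level, irf7 was at the 94.8th percentile, isg15 at the 93.5th, dhx58 at the 93.3rd and mxb at the 88.9th. In the same ranking irf1b was at the 83.3rd, mxa at the 79.6th, rsad2 at the 68.6th and ifih1 at the 54.1st. Without control-line female 39 the SD was 1.47 for irf7, 1.403 for dhx58 and 1.01 for isg15. Without the 5 libraries with many genes at 0 it was 1.22 for irf7, 1.04 for dhx58 and 0.77 for isg15. The median over all genes was not computed without these fish.

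The genes outside the 10 that followed their mean most closely were led by stat2 and included 3 genes of the ifi27 family. Among 16240 genes with a mean of at least 1 CPM, the 8 highest correlations over 24 fish were those of stat2 (0.934), ifi27.3 (0.862), ifi27.1 (0.841), ifi27.6 (0.835), hsd17b14 (0.828), the unnamed ENSDARG00000100904 (0.824), si:ch211-107o10.3 (0.824) and rab3da (0.822). Without control-line female 39 stat2 was still first at 0.90. Without the 5 libraries with many genes at 0, stat2 was second at 0.83 and ENSDARG00000100904 was 41st at 0.71, and the other 6 ranked 177th or lower.

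The rest of the pathway was read from 155 other gene IDs in lists by role. The interferon genes themselves had almost no reads: over all 24 fish ifnphi1 had 55 reads, ifnphi2 2, ifnphi3 5, ifnphi4 12, ifng1 22 and ifng1r 0. Control-line female 39 held 11 of the ifnphi1 reads, or 0.412 CPM, and 0 of ifng1, and the highest ifnphi1 level was 0.987 CPM in treated-line female 24. Of the ligand list il1b, a cytokine of inflammation, was the single one with enough reads to be tested, with a log2 change of −0.015 (SE 0.40, adjusted p = 0.985, edgeR) in F0 males.

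In exposed F0 males the calls outside the 10 genes were few and mostly lower. Of 97 other pathway genes tested, 2 rose and 7 fell; their median log2 change was −0.20, beside −0.02 over all genes. That is 9 of 97 against the 11.4% of all genes called. Of 9 receptor and kinase genes 3 fell: ifngr2, a subunit of the interferon gamma receptor, averaged 23.7 ± 3.41 CPM in treated and 34.2 ± 4.46 CPM in control males (SD, n = 6 each), which is −0.52 in log2 (SE 0.12, adjusted p = 0.0209, edgeR). Its partner subunit gene ifngr1l averaged 2.43 ± 0.70 CPM in treated and 4.83 ± 1.59 CPM in control males (log2 change −0.98, adjusted p = 0.0384). The kinase gene TYK2 averaged 10.1 ± 2.63 CPM in treated and 15.5 ± 2.93 CPM in control males (log2 change −0.61, adjusted p = 0.0423).

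Among 12 sensors and adaptors 1 rose and 1 fell. TBK1, the kinase that activates interferon regulatory factors, averaged 167.8 ± 24.5 CPM in treated and 125.5 ± 3.09 CPM in control males (log2 change 0.43, SE 0.09, adjusted p = 0.0159, edgeR), and no treated male was below 139.0 CPM while no control was above 131.1 CPM. mavs, the mitochondrial adaptor on which ifih1 acts, averaged 11.2 ± 0.92 CPM in treated and 16.0 ± 2.24 CPM in control males (log2 change −0.51, SE 0.13, adjusted p = 0.0253). Its arms did not overlap either, with 12.18 CPM as the highest treated and 13.1 CPM as the lowest control value. Both genes were named because they were called, and the share of all genes without overlap between the F0 arms was not counted. Of 14 transcription factors 0 were called in edgeR. Among them 1 had an unadjusted p under 0.05, STAT3 (log2 change −0.58, adjusted p = 0.0855), where 29.6% of all genes did.

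Of 20 antiviral effectors tested in F0 males 1 fell. mxd, another Mx gene, averaged 0.758 ± 0.306 CPM in treated and 2.35 ± 0.74 CPM in control males (log2 change −1.62, SE 0.38, adjusted p = 0.0206, edgeR). Its arms did not overlap, with the same limit as for TBK1 and mavs. Of 24 genes of antigen presentation 1 rose and 1 fell: cd74b, the invariant chain of class II molecules, averaged 93.7 ± 12.06 CPM in treated and 65.0 ± 10.6 CPM in control males (log2 change 0.54, adjusted p = 0.0178). b2ml, a light chain gene of class I molecules, averaged 87.5 ± 8.57 CPM in treated and 117.4 ± 15.5 CPM in control males (log2 change −0.42, adjusted p = 0.0206). Of 17 negative regulators PTPN2, a phosphatase that acts on Janus kinases and STATs, fell (log2 change −0.43, SE 0.12, adjusted p = 0.033). The arms of b2ml did not overlap either, with 98.61 CPM as the highest treated and 101.5 CPM as the lowest control value. For PTPN2 these were 16.56 and 16.72 CPM, and both have the same limit. The arms of ifngr2, ifngr1l, TYK2 and cd74b overlapped.

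These 9 calls were lost with a covariate for the libraries and without 3 of the F0 fish, as were most or all calls over the other genes. Of uniquely aligned reads, 16.6 to 19.5% lay outside annotated genes in treated and 19.9 to 21.4% in control males, and with this percent added as a covariate 0 of the 9 were called (adjusted p 0.86 to 0.974), with no sign reversed. The log2 change with the covariate was −0.48 for PTPN2, −0.365 for b2ml, 0.44 for cd74b and −1.46 for mxd, close to the values above. It was nearer to 0 for mavs (−0.34), ifngr1l (−0.43), TBK1 (0.15), ifngr2 (−0.13) and TYK2 (−0.103). Of all genes tested in F0 males, 2060 were called without the covariate and 0 with it, so the loss is not particular to the 9. The arms do not overlap in this percent, so the fit cannot tell it apart from treatment. The part of this percent in the calls was not tested. Treated male 16 and control males 9 and 33 were also left out together, as libraries taken to stand apart on a measure not given here. Without them 0 of the 9 were called (edgeR, adjusted p 0.0627 to 0.243). The log2 changes were then 0.375 for TBK1, 0.45 for cd74b, −1.76 for mxd and −0.54 for mavs. TBK1 and cd74b were called whichever single F0 fish was left out. The call of ifngr2 was lost without control male 9 or 33, that of mxd without treated male 24 or control male 25, and that of b2ml without treated male 24 or control male 33. That of mavs was lost without treated male 24 or control male 9, 25 or 31. PTPN2, ifngr1l and TYK2 lost theirs in 7, 8 and 10 of the 12 omissions.

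In the F2 lines 0 of 123 other pathway genes were called in edgeR in females or in both sexes together. In females 9 had an unadjusted p under 0.05 and over both sexes 10 did, where 7.65% and 7.69% of all genes did. In females 87 of 123 log2 changes were negative. The median in females by role was −0.72 for 32 antiviral effectors, −0.94 for 16 sensors and adaptors, −0.34 for 27 antigen presentation genes, −0.26 for 16 transcription factors, −0.22 for 10 receptors and kinases and −0.20 for 21 negative regulators, beside −0.02 over all genes, and il1b stood at −0.075. Without control-line female 39 the median was −0.20 for antiviral effectors, −0.51 for sensors and adaptors, −0.29 for antigen presentation genes and −0.08 for transcription factors. Without control-line females 31 and 39 it was 0.04, −0.07, −0.17 and 0.13 for these lists in the same order. Without the F2 libraries with many genes at 0 it was −0.73, −0.76, −0.17 and −0.102. Of uniquely aligned reads 18.7 to 20.8% lay outside genes in treated-line and 21.6 to 23.5% in control-line females. The ranges do not overlap, so this percent cannot be told apart from the line, and its part in these medians was not tested. Over both sexes the lowest p among the transcription factors was that of irf2a, a repressor of the family (log2 change −0.92, SE 0.39, adjusted p = 0.59), and il1b had a log2 change of 0.79 (SE 1.21, adjusted p = 0.959).

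Between generations 4 of 130 other pathway genes were called higher in F2 than in F0 males and 0 lower, where 4.28% of all genes were called. They were PSME2, an interferon-inducible proteasome activator (log2 change 1.23, SE 0.25, adjusted p = 0.0116, edgeR), b2m, the light chain of class I molecules (0.87, adjusted p = 0.0155), mhc1zba, a class I heavy chain (0.42, adjusted p = 0.0487), and the kinase gene jak2a (0.38, adjusted p = 0.0446). PSME2 had 7.49 to 7.79 CPM in treated-line and 7.81 to 8.87 CPM in control-line F2 males, against 1.75 to 3.58 CPM in treated and 2.63 to 7.11 CPM in control F0 males. Of 28 markers of microglia and macrophages 2 were also called higher in F2, and their part was not tested. These calls compare 4 F2 with 12 F0 males, whose generation cannot be told apart from whatever else differed between the cohorts. Each was lost in 2 to 15 of the 24 omissions of a single fish, PSME2 in 2, b2m in 3, jak2a in 13 and mhc1zba in 15. These omissions include those of F2 females, which are not compared here. PSME2 was lost without treated-line F2 male 38 or control-line F2 male 25. The call of b2m was lost without treated-line F2 male 38 or control-line F2 male 25 or 27, so both depend on single F2 males.

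Markers of immune cells gave no call between arms. Of all genes tested in edgeR, 29.6% had an unadjusted p under 0.05 in F0 males, 7.65% in F2 females and 1.4% in F2 males. In F0 males 0 of 21 markers of microglia and macrophages were called in edgeR (5 had an unadjusted p under 0.05, median log2 change 0.09), and the 28 markers read over all fish summed to 523.4 to 666.6 CPM in treated and 475.4 to 590.4 CPM in control males. In F2 females 0 of 24 were called and 0 had an unadjusted p under 0.05 (median −0.23), at 432.9 to 687.7 CPM in the treated and 498.1 to 679.9 CPM in the control line. In F2 males 0 of 24 were called (1 with an unadjusted p under 0.05), with sums of 575.7 and 678 CPM in the treated and 839.8 and 904.1 CPM in the control line. These sums did not overlap, but they are 2 against 2 fish, and the share of genes or lists without overlap was not counted. In the same males isg15, irf7, mxa and mxb lay lower in the treated line without overlap, with the same limit. Of these, mxa and mxb passed the filter on low counts through control-line fish alone. In these males rsad2 and dhx58 had lower means with overlap, and ifih1 and irf1b had higher means with overlap. Markers of lymphocytes and NK cells summed to 16.0 to 17.7 CPM in treated-line and 16.8 to 32.2 CPM in control-line females, with 0 of 13 called and 0 at an unadjusted p under 0.05 (median −1.03). Markers of other cells did give calls in F0 males. Of 14 neuron markers 4 were called higher and 2 lower in treated males (median log2 change −0.08), of 12 markers of radial glia and astroglia 2 higher with 11 positive (median 0.29), and of 15 endothelial markers 1 higher (median −0.20), beside 11.4% of all genes called. Of 27 photoreceptor markers 0 were called and 18 were positive in F0 males (1 with an unadjusted p under 0.05, median 0.45). In F2 females 27 of 28 photoreceptor markers were positive with 0 called (0 with an unadjusted p under 0.05, median 1.64), beside the negative medians of the interferon genes. Of 12 markers of radial glia and astroglia 10 were positive in F2 females with 0 called (1 with an unadjusted p under 0.05, median 0.21). The part of these cells in the levels of the 10 genes was not tested.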

How the data were processed

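Libraries were made with an mRNA kit from whole-brain RNA, per the labels' protocols. The deposited values are raw HTSeq counts per gene, which the authors made from reads trimmed with cutadapt 2.1, aligned to GRCz11 with STAR 2.7 and counted with HTSeq 0.11.2, per the submitters' processing notes. The annotation release and the strand setting were not given in the sources used here. Genes that overlap or have near-identical copies are uncertain. Runs of one fish were summed, 31 runs giving 24 fish: they differed by a chi-square per degree of freedom of 1.03 to 1.19, against 14.6 to 102 between fish. Genes were kept by filterByExpr (minimum count 10), scaled by TMM and tested with edgeR 4.0.16 in R 4.3.3. F0 males and F2 fish were fitted apart, and comparisons across generations over all 24 fish. All F2 fish shared the same estimate of the spread, so the SE and p-values in F2 males draw on the F2 females as well. Each SE was derived from the test, as the absolute log2 change divided by the square root of its F statistic. DESeq2 1.42.0 was an alternative, and the fit was tested on simulated data. Levels are CPM from these counts, and log2 levels of single fish use a prior count of 2. The log2 changes come from the edgeR fits and not from these log2 levels. Levels were not compared between genes, since gene lengths were not used. The 10 genes, the lists and the alternatives were chosen with earlier results of these data known.

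The values of 2 of the 10 genes are not reported here. Named were the others, up to 4 called genes of each list and comparison by lowest p (with no call, the gene of lowest p in F0 and in F2 of both sexes), and the 8 genes closest to the mean of the 10. The named generation calls, stat2, xaf1, the other ligands and the per-fish values of genes outside the 3 of largest spread were chosen after their values were seen. Of 199 pathway names 156 matched. Promoter sequences were not used here.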

Additional observations from a re-analysis of the deposited data

Results flagged for a closer look

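In 39 groups of 4 or more fish examined for a single fish far from the rest, 3 fish were found, where chance flags about 1 in 20 groups. isg15 in treated F0 male 16 was at 29.95 CPM, with the next treated male at 7.82 CPM. irf1b in F0 control male 25 was at 27.03 CPM, with the next control male at 9.11 CPM. irf7 in control-line F2 female 39 was at 5.473 CPM, with the next control-line female at 0.902 CPM.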

How the results depend on the processing

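Of 2273 log2 changes of the 10 genes under an alternative, 1 was called (irf1b between generations), 130 had the opposite sign and 28 had no adjusted p. The number of all genes called moved more. With DESeq2 it was 3347 in F0 males, 34 in F2 females, 6 in F2 males, 61 in both F2 sexes, 33 between sexes, 2061 between generations, and 11 and 68 for the F0 effect minus that in F2 males and in F2 females. Without a filter it was 3, 3, 5 and 7 in F2 females, F2 males, both sexes and between sexes, and 1 for the difference between the sexes' line effects. With a covariate for the percent of reads outside genes it was 0 in F0 males, 0 between sexes, 1445 between generations and 4 for F0 minus F2 females. Without F0 males 16, 9 and 33 it was 42 in F0 males and 1552 between generations. With all 24 fish in 1 fit it was 787 in F0 males and 3 in F2 females, with F2 males alone 22, and with the 16 males alone 3278 between generations.

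The next 3 alternatives were added after seeing the data. Without control-line females 31 and 39 the count was 13 in F2 females, 5 between sexes and 3 in both sexes. Without the 5 libraries with many genes at 0 it was 5 in F2 females, 4 in F2 males, 2 in both sexes, 6 between sexes, 7 for the difference between the sexes' line effects, 5182 between generations, and 14 and 2 for the F0 effect minus that in F2 males and females; the median correlation of the 10 genes was 0.230. Without those and female 39 it was 12, 6 and 2 in F2 females, F2 males and both sexes, 5108 between generations, and 14 and 6 for the F0 effect minus that in F2 males and females; the median correlation was 0.130. The cause was not tested.

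Leaving out 1 fish at a time gave 440 to 3217 calls in F0 males, 0 to 0 in F2 females, 0 to 2 in F2 males, 0 to 2 in both sexes, 2 to 5 between sexes, 10 to 2315 between generations, 0 to 1 for the difference between the sexes' line effects, and 0 to 1 and 0 to 6 for the F0 effect minus that in F2 males and females. Of the 10 genes 0 to 1 were called between generations and 0 to 0 elsewhere. No paired analysis was possible because, within a generation, treated and control groups share no fish number. Between generations 5 numbers recur for different fish, whose deviations from their group means correlated at −0.07 to 0.03. These correlations cannot decide whether a shared number links fish. In an F2 male group of 2 fish the deviations only mirror each other. With the number as a replicate block, added after seeing the data, 828 genes were called between generations, 62 and 35 for the F0 effect minus that in F2 males and females, and 0 of the 10 genes. The promoter motif description was not run. The genes mxa, mxb, irf7 and dhx58 lie near 0 reads in many fish, and the part of depth in this was not tested.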
